A study of Mus musculus with 14 samples.

Results

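Trimethylation of lysine 4 of histone H3 (H3K4me3) is best known from active promoters, yet part of the H3K4me3 peaks in iMEF cells lay far from any annotated transcription start site (TSS). The 1859 peaks described here were intergenic distal peaks without a putative enhancer. A peak was taken when its centre was more than 3 kb from every GENCODE TSS, when it had no base in a protein-coding gene or in a putative enhancer, and when it was more than 1 kb from any tRNA gene. Chromosome 15 and chromosome 10 from 105 to 130 Mb were left out. The 1859 regions were 7.31% of the 25431 peaks in the list and 7.88% of the 23581 peaks that remained on the chromosomes analysed, and they covered 564 kb.

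The peaks came from immortalised mouse embryo fibroblasts (iMEFs) in which the floxed Ash2l alleles had been deleted with Cre-ER and a lentiviral, FKBP-tagged human ASH2L was the only source of this protein. All groups shared this background, and per the paper the ChIP-seq cells were of 1 selected clone, NG3. ASH2L belongs to the core of the SET1 and MLL (KMT2) complexes, the H3K4 methyltransferases, and the compound dTAG marks the FKBP fusion for degradation. H3K4me3 libraries existed in duplicate for each of 6 groups, namely no dTAG and 30 min, 2 h, 4 h, 8 h and 16 h of dTAG, and 1 input library each was made without dTAG and at 16 h, 14 in all. The deposited peak list was 1 union over all samples and gave positions only. Values per sample, peak heights and changes over time were therefore not analysed here, and no value below carries a replicate error.

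As background, H3K4me3 is placed by SET1 and MLL methyltransferases, of which several subunits bind unmethylated CpG-rich DNA directly or through partners. CpG islands, stretches of DNA dense in CpG dinucleotides, therefore often carry the mark, also where no gene start is annotated. Short H3K4me3 signals occur as well at enhancers, which more typically carry monomethylation of the same residue, and at the start sites of unannotated transcripts. The fibroblast label was checked at promoters. Of 12 fibroblast markers, 10 had a peak within 1 kb of a TSS, among them Col1a1, Pdgfra, Prrx1 and Twist1, and Lum and Dcn had none. Of 11 markers of other cell types, Epcam and Cdh1 had a peak.

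The sequences at the extremes of the set show how different these regions were from each other. Each is the central 200 bp of 1 peak, read 5′ to 3′ from GRCm38.p6. In the first group of 3, capitals mark CpG dinucleotides. The widest peak held 16 CpGs in its centre, the peak with the highest ratio of observed to expected CpGs among those of at least 500 bp held 13, and a peak 331 kb from any GENCODE TSS, among the 5 farthest, held 4.
Widest, chr9:67633325-67633524, plus strand: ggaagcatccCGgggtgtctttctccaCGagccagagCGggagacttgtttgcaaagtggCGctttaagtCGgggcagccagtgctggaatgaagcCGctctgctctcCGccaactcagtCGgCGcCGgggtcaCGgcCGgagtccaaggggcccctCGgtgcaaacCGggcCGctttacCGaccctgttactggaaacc
Highest CpG ratio, chr2:173586085-173586284, plus strand: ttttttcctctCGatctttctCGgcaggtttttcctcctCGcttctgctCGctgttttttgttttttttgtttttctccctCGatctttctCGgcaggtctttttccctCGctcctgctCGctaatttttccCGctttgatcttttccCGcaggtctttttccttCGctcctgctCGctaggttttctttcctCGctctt
Among the 5 farthest from a TSS, chr2:56454723-56454922, plus strand: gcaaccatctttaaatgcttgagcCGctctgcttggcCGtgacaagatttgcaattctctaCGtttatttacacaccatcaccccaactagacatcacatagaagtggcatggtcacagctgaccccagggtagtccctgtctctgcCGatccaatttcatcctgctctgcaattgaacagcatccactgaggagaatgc

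The second group shows the peaks with the most matches to 2 transcription factor motifs, with the matching letters in capitals. The AP-1 motif TGANTCA is bound by FOS and JUN dimers and the CTCF core AGNGGGCNC by the insulator protein CTCF. The AP-1 example held 3 matches, which began at bases 68, 129 and 192 of the window. The bases between the matches are nearly the same, so the matches lie in copies of a repeated unit. The CTCF example is the widest of 3 peaks with 2 matches each, which here lie on opposite strands.
AP-1, chr12:30473949-30474148, plus strand: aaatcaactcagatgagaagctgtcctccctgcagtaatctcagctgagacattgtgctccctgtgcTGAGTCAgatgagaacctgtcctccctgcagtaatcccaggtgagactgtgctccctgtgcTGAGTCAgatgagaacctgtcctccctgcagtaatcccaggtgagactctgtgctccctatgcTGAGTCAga
CTCF, chr5:121842891-121843090, plus strand: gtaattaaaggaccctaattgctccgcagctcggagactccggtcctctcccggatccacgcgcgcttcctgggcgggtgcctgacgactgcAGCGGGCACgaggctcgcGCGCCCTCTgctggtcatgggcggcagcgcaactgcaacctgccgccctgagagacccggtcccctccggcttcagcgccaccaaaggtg

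Most intergenic distal peaks were narrow. The median width was 234 bp, with a 95% interval of 231 to 239 bp from order statistics, and the quartiles were 200 and 312.5 bp. The shortest width in the whole list, 200 bp, was met by 467 of them, or 25.1% (Wilson 95% interval 23.2 to 27.1%). The share at this limit was 23.3% in the 1096 intragenic distal peaks, which met the same distance rules but had a base in a protein-coding gene. It was 5.54% in the 1101 distal peaks that overlapped a putative enhancer and 1.43% in the 16668 promoter peaks, whose centre lay within 1 kb of a TSS. The difference from the intragenic peaks was 1.85 percentage points, with a Newcombe 95% interval of -1.37 to 5.00 that included 0, and the difference from the peaks on enhancers was 19.6 points (17.1 to 21.9). The plot of widths shows the 2 sets without an enhancer on nearly the same curve. All intervals here cover counting error only, since regions are not replicates of a condition.

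**Figure D1:**
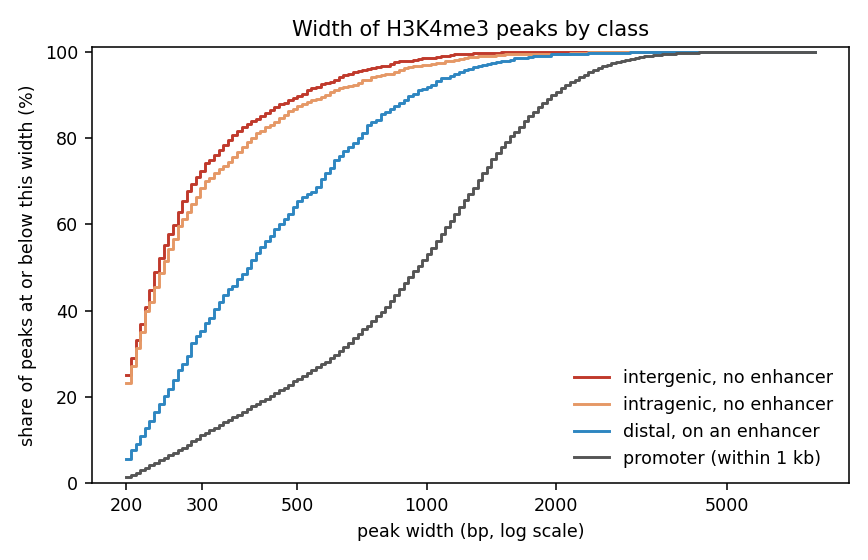
Share of peaks at or below each width (y axis, %) against peak width in bp (x axis, log scale) for 4 classes of H3K4me3 peaks. Medians were 234 bp for intergenic and 241 bp for intragenic distal peaks without an enhancer, 382 bp for distal peaks on an enhancer and 948 bp for promoter peaks.

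A minority was wide, and CpG islands and RefSeq starts were more frequent in these than in the narrow ones. Width of 500 bp or more was reached by 193 peaks (10.4%), and 28 reached 1000 bp. Of these 28, 22 overlapped a CpG island, 11 had a RefSeq TSS within 1 kb and 11 had a putative enhancer within 10 kb. Of the 10 widest, 8 overlapped an island and 4 had a RefSeq TSS within 1 kb.

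The widest region, chr9:67632193-67634656, was 2464 bp long and lay 72.5 kb from Tln2, which encodes the integrin adaptor talin 2, and 125 kb from C2cd4b. It overlapped an island, its GC content was 60.3%, and a predicted Tln2 transcript of RefSeq began 0.550 kb from its centre. The second, chr9:32031832-32033570, was 1739 bp long and lay between Barx2, a homeobox gene, and Arhgap32, with the start of a predicted Arhgap32 transcript 0.097 kb away. The fourth, chr7:143977998-143979454 (1457 bp), was 0.108 kb from the start of a predicted transcript of Shank2, a postsynaptic scaffold gene. The tenth, chr11:98457085-98458295 (1211 bp), lay between Grb7 and Ikzf3 and 0.540 kb from a predicted start of Mien1. All 4 of these starts are RefSeq models made by prediction and are not in the GENCODE release used.

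Others of the 10 widest had no such start within 1 kb. The third, chr3:88138140-88139712 (1573 bp), had its centre 3.45 kb from a TSS of Mef2d, a transcription factor gene of muscle and other tissues, and no island. The seventh, chr11:85843488-85844794 (1307 bp), began 1.54 kb from the end of Tbx2, a T-box developmental regulator. The eighth, chr8:83874858-83876137 (1280 bp), lay between Adgre5 and Adgrl1, and the ninth, chr2:61655721-61656985 (1265 bp), was 1.55 kb from Tank, a regulator of innate immune signalling. The sixth, on chromosome 18, was 1353 bp long and lay between Cxxc5 and Psd2. These regions were between 59.9% and 64.4% GC, except for the third at 54.0%.

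The fifth widest region did not share these features. At chrX:31767270-31768670 it was 1401 bp long, with a GC content of 48.6%, no CpG in its central 200 bp and a CpG ratio of 0.101. It lay 50.1 kb from Btbd35f25 and 4125 kb from the nearest putative enhancer. It closed a run of 5 intergenic distal peaks within 6.77 kb, none of which overlapped an island and none of which held a 75-base window that occurs a further time in the assembly. The other 4 were 263 to 293 bp wide, and their ratios lay between 0.0649 and 0.226.

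CpG content varied widely within the set. Of the 1859 regions, 169 (9.09%, 7.87 to 10.5%) overlapped a CpG island, and 317 (17.1%) had no CpG in their central 200 bp. Island regions had a median width of 508 bp, a median GC content of 61.9% and a median of 15 CpGs in the centre. The 1690 others had medians of 228 bp, 49.5% and 2 CpGs. A RefSeq TSS lay within 1 kb of 18.9% of the island regions and 4.14% of the others, and an enhancer within 10 kb of 27.8% and 10.9%. The share on an island differed from that of intragenic distal peaks (8.67%) by 0.423 points, with an interval of -1.76 to 2.49 that included 0. Its difference from peaks on enhancers was -8.35 points (-11.0 to -5.81), and it was 72.3% in promoter peaks. With a stricter island definition, the shares were 2.74% and 4.47%, and the difference from intragenic peaks became -1.73 points (-3.26 to -0.362).

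The 5 regions of at least 500 bp with the highest CpG ratio lay at 3.41 to 10.3 kb from a GENCODE TSS. All overlapped an island, which the selection favoured because islands are defined in part by the same ratio. The first, chr2:173585929-173586440, had a ratio of 1.38 and lay inside Ppp4r1l-ps, a pseudogene, 7.56 kb from Ankrd60, and its printed centre repeats a short unit with CpGs. The second, chr6:88499926-88500473, had a ratio of 1.10 and 39 CpGs in its centre, between Ruvbl1, which encodes a chromatin-remodelling ATPase, and Sec61a1, a subunit of the protein translocation channel. The third, chr5:29467863-29468417, had a ratio of 1.01 and lay 4.62 kb from Mnx1, a homeobox gene of motor neurons and pancreas. The fourth, chr6:128838508-128839037 (0.997), lay between Klrb1b and BC035044 and only 0.237 kb from a putative enhancer. The fifth, chr8:92460077-92461162 (0.988), lay between the Iroquois homeobox genes Irx5 and Irx6.

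Within width classes, part of the distance to the other classes was no longer seen. The widest class, 500 bp or more, has no upper limit, and its median width was 652 bp in the intergenic and 1156 bp in the promoter peaks. Among peaks of at least 500 bp, 45.1% of the intergenic distal peaks overlapped an island (87 of 193), against 41.6% of intragenic peaks and 38.2% of peaks on enhancers, and the intervals of both differences included 0 (-7.35 to 14.1 and -1.61 to 15.3 points). Promoter peaks of this class reached 84.0%, a difference of -39.0 points (-45.9 to -31.9). The SP/KLF motif, the GC box GGGCGGG that SP and KLF factors bind, was found in the central 200 bp of 20.2% of these intergenic peaks and of 20.5% of the promoter peaks, a difference of -0.307 points (-5.42 to 5.95). In intragenic peaks of this width the motif was found in 11.7%, and the intergenic share exceeded this by 8.53 points (0.331 to 16.1). The CTCF core was found in 6.74% of the intergenic and 5.93% of the promoter peaks, a difference of 0.808 points (-1.98 to 5.27). In peaks of 200 to 249 bp, by contrast, the GC box was found in 1.88% of intergenic and 8.11% of promoter peaks, a difference of -6.24 points (-8.15 to -4.44), and an island in 1.31% and 21.1%. At 250 to 499 bp the GC box was found in 6.83% of intergenic and 9.99% of promoter peaks, a difference of -3.16 points (-5.25 to -0.633).

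**Figure D2:**
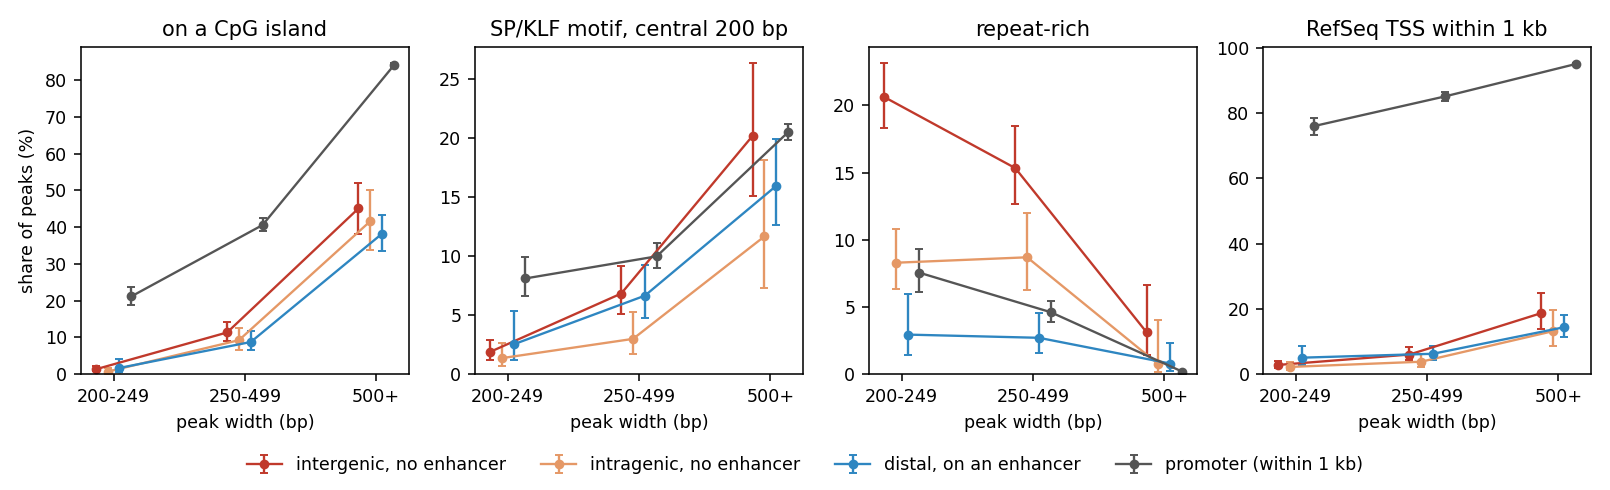
Share of peaks (y axis, %) in 3 width classes (x axis, bp) for 4 features, by peak class, with Wilson 95% intervals as bars. In intergenic distal peaks without an enhancer, islands went from 1.31% to 45.1% and the SP/KLF motif from 1.88% to 20.2% between the narrowest and the widest class, while repeat-rich regions went from 20.6% to 3.11%.

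The narrow peaks differed in base composition from intergenic windows without a peak. The 1066 intergenic peaks of 200 to 249 bp had a median GC content of 49.5% (49.3 to 49.6%), and their 5th and 95th percentiles were 45.0% and 55.7%. For comparison, 135206 windows of 200 bp were placed every 10 kb where the same position rule held and no peak was present. Their median was 40.5%, with 5th and 95th percentiles of 28.5% and 52.5%, and 35.3% of them had no CpG. Intragenic peaks of the same width also had a median GC content of 49.5%, with a range from the 5th to the 95th percentile of 44.8% to 56.6%. The cause of this narrow range was not tested.

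Repeats were more frequent than in the other classes of peaks, and less frequent than in the windows without a peak. More than 50% of the bases were soft-masked as repeats in 318 regions (17.1%, 15.5 to 18.9%), against 7.48% of intragenic peaks, 2.09% of peaks on enhancers, 1.45% of promoter peaks and 38.5% of the windows. The difference from intragenic peaks was 9.62 points (7.25 to 11.9). In the narrowest width class the shares were 20.6% and 8.29%, so that the difference of 12.3 points (8.93 to 15.6) was also present in this class. At 500 bp or more it was 2.38 points, with 0 in the interval (-1.31 to 5.94). In the narrowest class, promoter peaks reached 7.55%. The windows were not filtered by whether reads can be placed uniquely in them, and the effect of this on the comparison was not tested.

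Few regions were copies of other places in the genome. The authors had filtered out unusable reads before peaks were called, and the effect of that filter on such regions was not tested. In 18 regions (0.968%), over 50% of the windows of 75 bases, the length of a read, occurred again in the assembly, and 138 regions (7.42%) had at least 1 such window. In intragenic peaks these shares were 0.274% and 2.92%. The first difference was 0.695 points (0.0584 to 1.28) and the second 4.50 points (2.89 to 6.04). The first rests on 18 regions, and its interval included 0 under 6 of 12 other settings, for example on autosomes only (0.593 points, -0.0506 to 1.19). The 18 regions were spread over 12 chromosomes, with at most 3 on any of them.

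With respect to genes, the median distance from the centre of a region to a GENCODE TSS was 17.9 kb (16.6 to 19.2 kb), and to a TSS of a protein-coding gene 51.0 kb (47.1 to 55.9 kb). For intragenic peaks the medians were 10.8 and 14.3 kb, and for windows without a peak 26.2 and 125 kb. Intragenic peaks were defined by a base in a protein-coding gene, which in itself favours a short distance to a coding TSS. The windows were all intergenic and give no background for intragenic peaks. The nearest TSS belonged to a protein-coding gene for 591 regions, to a processed pseudogene for 432 and to a lincRNA for 409. A noncoding gene or pseudogene covered part of 203 regions (10.9%), and for 135 of these it was a lincRNA alone. The same was true of 9.16% of the windows. The regions just inside the distance rule had centres 3003, 3021 and 3034 bp from a TSS, and those just outside were at 2999, 2992 and 2988 bp.

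A RefSeq TSS that the GENCODE release did not place nearby was found within 1 kb of 102 regions (5.49%, 4.54 to 6.62%), compared with 0.903% of the windows. It was 4.11% in intragenic peaks, with an interval of the difference that included 0 (-0.263 to 2.91 points), and 8.81% in peaks on enhancers, a difference of -3.32 points (-5.38 to -1.42). By the nearest such start of each of the 102 regions, it was a predicted model for 81, of an lncRNA for 69 and of an mRNA for 29. Regions can share a start. These 102 regions had a median width of 385.5 bp, and 32 of them (31.4%) overlapped an island. The other 1757 had a median width of 232 bp, and 7.80% overlapped an island. Apart from those named above, the widest included chr1:166047701-166048902 (1202 bp) with the start of the lncRNA Gm33224 at 0.773 kb, and chr11:69417753-69418865 (1113 bp), 1.94 kb from Dnah2 and 4.08 kb from Kdm6b, an H3K27 demethylase gene.

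The share of regions within 10 kb of a putative enhancer was close to that of windows without a peak. The rule had removed the 647 intergenic distal peaks that touched an enhancer, and windows that touched one were removed in the same way, so these distances describe only what was left. The authors had defined these enhancers in control cells by H3K4me1, H3K27ac and open chromatin. An enhancer lay within 10 kb of 231 regions (12.4%, 11.0 to 14.0%) and of 12.0% of the windows. In intragenic peaks the share was 23.0%, a difference of -10.6 points (-13.5 to -7.70). No windows inside coding genes were placed, so this difference has no background of its own. The median distance to an enhancer was 102 kb (92.6 to 117 kb) for the intergenic and 42.0 kb for the intragenic peaks, and 100 kb for the windows. Close to enhancers the shares of peaks and windows parted, at 4.73% (3.86 to 5.80%) against 3.07% within 2 kb. The distance differed with width, and its median was 148 kb for regions of 200 to 249 bp and 34.1 kb for those of at least 500 bp. The regions nearest to an enhancer were 37, 61 and 67 bp away, and the intergenic distal peaks left out for the smallest overlaps shared 51, 108 and 118 bases with one.

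**Figure D3:**
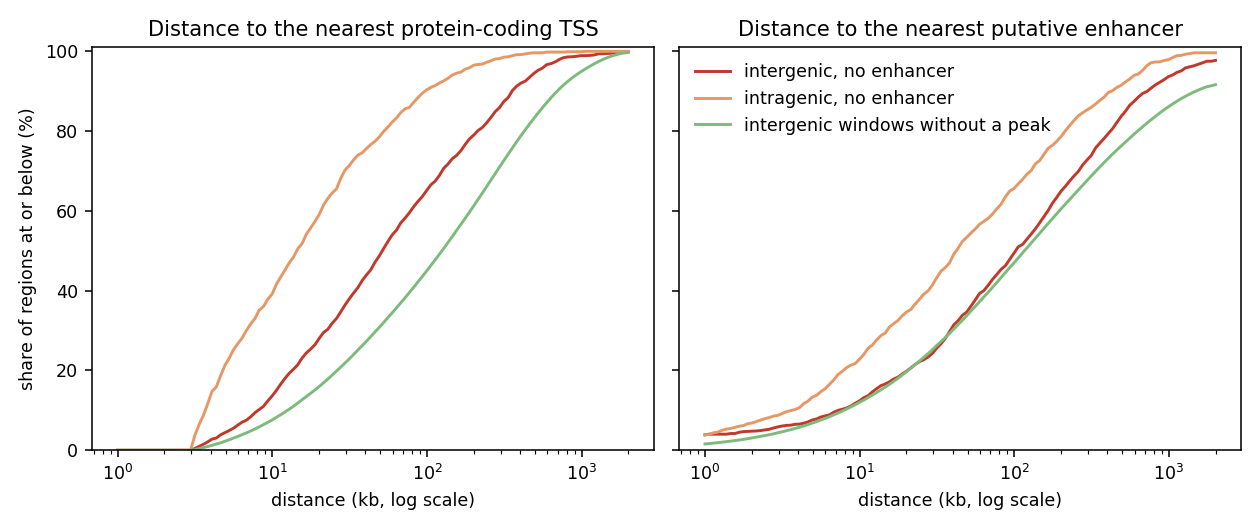
Share of regions (y axis, %) at or below each distance in kb (x axis, log scale) to the nearest protein-coding TSS (left) and the nearest putative enhancer (right). Intergenic distal peaks lay between intragenic peaks and windows without a peak for coding TSSs, with medians of 51.0, 14.3 and 125 kb, and followed the windows for enhancers, with medians of 102 and 100 kb. The split by overlap with a coding gene in itself favours short distances of intragenic peaks to coding TSSs, and the windows were all intergenic.

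Motifs of 17 kinds were searched on both strands of the central 200 bp. CEBP (TTGCNNAA), AP-1 and SP/KLF were the most frequent, in 7.15%, 5.59% and 5.38% of the regions, and the 9-letter ZBTB33 motif was found in none. Against peaks on enhancers, the AP-1 share differed by -1.13 points (-3.02 to 0.627) and the CTCF share by -0.742 points (-2.11 to 0.473), with 0 in both intervals. In regions of 500 bp or more, however, CTCF was more frequent than on enhancers, at 6.74% (13 of 193) against 2.88% (11 of 382), a difference of 3.86 points (0.327 to 8.48). At 250 to 499 bp the difference was -0.368 points (-2.71 to 1.80), and at 200 to 249 bp CTCF was less frequent (1.41% against 3.36%, -1.95 points, -5.13 to -0.0754). These intervals by width are unadjusted and rest on few peaks. Intragenic peaks of 500 bp or more had CTCF in 1.46% (2 of 137), a difference of 5.28 points (0.656 to 9.85). In the windows without a peak, CEBP was found in 10.0%, more often than in the regions, and AP-1 in 5.89%. CTCF was found in 2.53% of the regions and 1.09% of the windows, and SP/KLF in 5.38% and 0.670%. The TATA box letters TATAAA were found in 5.11% of the regions and 20.7% of the windows, and the median GC content was 50.0% in the former and 40.5% in the latter.

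With intervals widened for 17 comparisons, 2 motifs differed from peaks on enhancers, and both were less frequent in the intergenic peaks. These were SP/KLF (5.38% against 8.99%) and the E-box CACGTG, which is bound by MYC and related factors (1.88% against 4.45%, a widened interval of -4.92 to -0.642 points). Within width classes the SP/KLF difference had 0 in every interval, at -0.645 points (-3.59 to 1.05) for 200 to 249 bp, 0.181 points (-2.95 to 3.17) for 250 to 499 bp and 4.24 points (-2.22 to 11.3) for 500 bp or more. The E-box difference excluded 0 at 200 to 249 bp (-3.77 points, -7.48 to -1.33) and not in the 2 wider classes. The E-box was also the 1 motif that differed from intragenic peaks, where it was found in 3.92% (-4.31 to -0.198 points). Within width classes this difference excluded 0 only at 250 to 499 bp (-3.22 points, -6.04 to -0.980). It was -0.680 points (-2.37 to 0.676) at 200 to 249 bp and -4.40 points (-10.5 to 0.659) at 500 bp or more. The widened interval of SP/KLF against intragenic peaks included 0, but its unadjusted interval excluded 0 in the 2 wider classes. These differences were 3.84 points (0.963 to 6.50) at 250 to 499 bp and 8.53 points (0.331 to 16.1) at 500 bp or more. At 500 bp or more the CTCF and AP-1 differences from intragenic peaks, 5.28 and -4.71 points, also excluded 0. In promoter peaks the E-box was found in 3.92% as well, and in windows without a peak in 1.66%. It was less frequent than in promoter peaks at 200 to 249 bp (1.69% against 3.96%, -3.76 to -0.871 points) and at 250 to 499 bp (1.67% against 3.73%, -3.13 to -0.558 points). At 500 bp or more the interval included 0 (3.63% against 3.96%, -2.22 to 3.35 points).

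Against promoter peaks 9 of the 17 motifs differed. AP-1, NFY, RUNX and TATA were more frequent in the intergenic peaks, and CTCF, ETS, SP/KLF, the E-box and EGR were less frequent. NFY was found in 3.01% of the intergenic peaks, 1.81% of promoter peaks and 2.71% of windows without a peak. For RUNX these shares were 4.36%, 2.14% and 4.53%, so both motifs were close to the windows. SP/KLF was found in 17.8% of promoter peaks, a difference of -12.5 points (-13.6 to -11.2), ETS in 4.85% against 1.51%, and EGR in 5.31% against 1.13%. AP-1 was found in 2.87% of promoter peaks, a difference of 2.73 points (1.73 to 3.89). Within width classes this difference had 0 in the interval, at 1.94 points (-0.00178 to 3.92), 1.13 points (-0.525 to 3.28) and 0.0976 points (-1.41 to 3.44) from the narrowest to the widest class. Among regions of at least 500 bp AP-1 was found in 2.59% of the intergenic peaks (5 of 193) and 7.33% of the peaks on enhancers (28 of 382), a difference of -4.74 points (-8.14 to -0.743). Intragenic peaks of this width, also without an enhancer, had a similar share to the latter, 7.30% (10 of 137). The difference from these was -4.71 points (-10.5 to -0.0303).

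**Figure D4:**
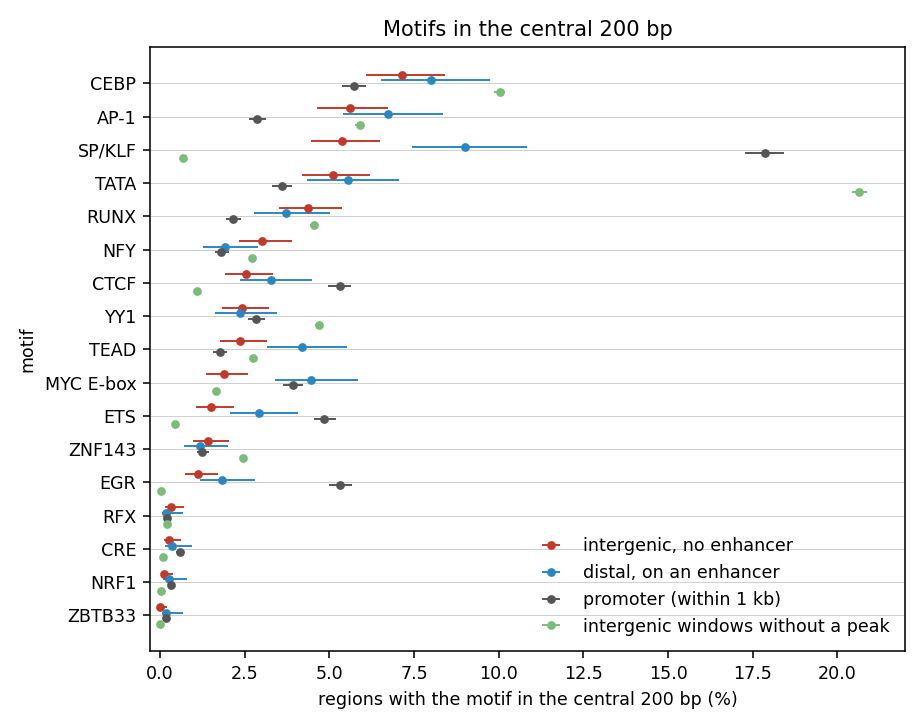
Share of regions with each of 17 motifs in the central 200 bp (x axis, %), with Wilson 95% intervals, for intergenic distal peaks without an enhancer, distal peaks on an enhancer, promoter peaks and intergenic windows without a peak. SP/KLF runs from 0.670% in windows over 5.38% in the intergenic peaks to 17.8% in promoter peaks, and TATA is at 20.7% in windows and 5.11% in the intergenic peaks.

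The regions were spread over all chromosomes analysed. Their density was lowest among autosomes on chromosome 3 (0.437 per Mb) and highest on chromosome 7 (1.01 per Mb). Chromosome X held 144, or 0.842 per Mb, within this range, although its densities of promoter peaks (3.39 per Mb) and putative enhancers (2.92 per Mb) were below those of every autosome, which started at 4.56 and 10.8 per Mb. It thus had 0.248 intergenic distal peaks for each promoter peak, against 0.0729 to 0.146 on autosomes. Repeat-rich regions made up 31.2% of the 144 on X and 15.9% of the 1715 elsewhere. Chromosome Y held 2 regions, no promoter peak and no enhancer.

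**Figure D5:**
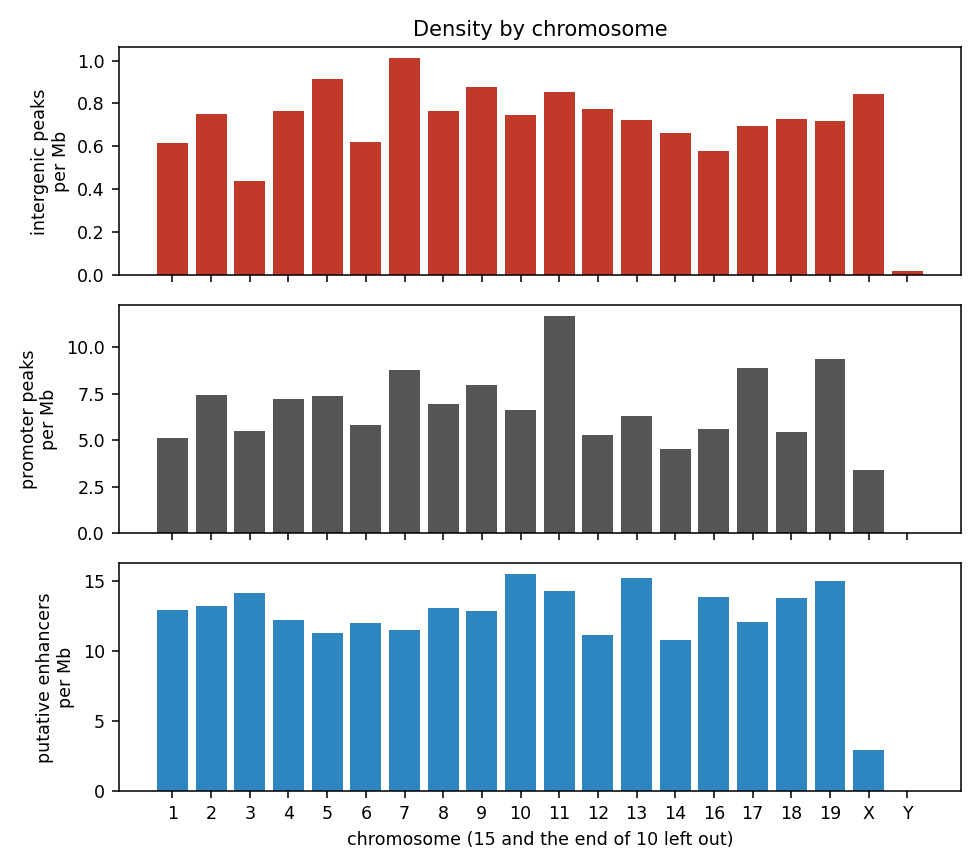
Density per Mb (y axes) of intergenic distal peaks without an enhancer, promoter peaks and putative enhancers on each chromosome (x axis). Chromosome X is within the autosomal range for the first, at 0.842 per Mb, and below it for the other 2.

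The 4 windows of 1 Mb with the most regions held 1 promoter peak and no putative enhancer between them. The richest was chromosome 5 from 126 to 127 Mb with 12 regions, between Tmem132b and Tmem132c, in which no protein-coding gene lay. Windows with 11 regions each began at 106 Mb on chromosome 12, beside Vrk1, at 169 Mb on chromosome 2, between Zfp64 and Gm11011, and at 31 Mb on chromosome X, among the Btbd35f and Spin2 gene families. The promoter peak was in the window on chromosome 12. In the 3 autosomal windows the regions were 200 to 435 bp wide with median GC contents of 49.3%, 49.1% and 50.7%, no region overlapped an island, and the nearest enhancer was at least 340 kb away.

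Such windows were not where most of the regions lay. Windows without a promoter peak or an enhancer numbered 331 of 2519 and held 227 regions (12.2%, 10.8 to 13.8%), while they held 19.2% of the peak-free windows of the grid. The 227 regions had a median width of 221 bp, 1 of them overlapped an island and 27.8% were repeat-rich. Among the 1632 others, 168 overlapped an island (10.3%) and 15.6% were repeat-rich.

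Most regions stood alone. When regions at gaps of at most 10 kb were joined, 1570 remained single and 289 (15.5%) formed 127 runs, of which 2 had 5 regions. The median distance to the next H3K4me3 peak of any class was 36.2 kb (32.6 to 40.0 kb), and 9.31% had one within 1 kb, against 18.1% of intragenic peaks, a difference of -8.76 points (-11.4 to -6.18). Besides the run on chromosome X, the second run of 5 lay on chromosome 4 inside the noncoding gene Gm26573, between the zinc finger genes Zfp992 and Zfp981, with widths of 200 to 250 bp and no island. A run of 4 on chromosome 7 spanned 5.31 kb between Ccdc9 and Bbc3, which encodes the pro-apoptotic protein PUMA, and 3 of its regions overlapped islands. Another run of 4 on chromosome 1 spanned 8.92 kb between Tex44 and Ptma, with 2 on islands and a widest region of 1159 bp. A further run of 4, between Ifne and Mtap on chromosome 4, had no island and lay 1.02 to 2.88 kb from putative enhancers.

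As the nearest coding TSS, 1325 genes were assigned to the 1859 regions, 1002 of them to 1 region each. Those assigned to the most were 3110018I06Rik and Tmem132b with 10 each and Gm11011 with 9. Kdm8, which encodes a JmjC domain protein, Olfr161, an olfactory receptor gene, and Tmpo, a gene of the nuclear lamina, had 8 each, and Cbln4 and Tmem132c had 7. Auts2, Castor2, Nfe2l3 and Snrpn followed with 6 each. Around Tmem132b, 3110018I06Rik and Tmem132c the regions lay 104 to 692 kb from the TSS, so that the nearest gene was often far away. The 6 regions assigned to Snrpn, an imprinted gene, lay in the interval towards Ndn, at 104 to 1082 kb from the TSS. They were 236 to 700 bp wide, 4 of them over 500 bp, and none overlapped an island.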

How the data were processed

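The authors trimmed reads with Trim Galore, aligned them with BWA to mm10, filtered them with SAMtools, merged replicates with Picard and called narrow peaks with MACS2, per their methods and processing notes. Versions are not given in the sources used here. The 2 deposited lists used here hold positions only (a chromosome, a start and an end), with 0 columns of values per sample, so depth per library is unknown, and time points and replicate errors were not analysed here.

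Peak starts were read as counting from 0, enhancer starts from 1. No region passed the end of a chromosome of GRCm38.p6. TSSs came from GENCODE M21 (132629 positions), a release other than the one the authors name, and from RefSeq. Peaks were assigned to classes in a fixed order: distance of the centre to a TSS, 403 RefSeq tRNA genes, any base in an enhancer, any base in a protein-coding gene. CpG islands were segments over 200 bp with over 50% GC and a CpG ratio over 0.6, found by scoring 17 per CpG and -1 per other base (strict: over 500 bp, 55% and 0.65). They are not the published track. Repeats were the soft-masked bases of the RefSeq assembly. Repeated 75-base windows were counted on both strands. The windows of the 10-kb grid were systematic, not random, and were not tested.

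Shares carry Wilson and differences Newcombe 95% intervals, medians intervals from order statistics, with motif families also at a level divided by 17. Other intervals are not adjusted for the number of comparisons. Regions are not replicates and can share neighbourhoods, so intervals cover counting error only. The named regions were the 10 widest, the 5 farthest from a TSS, the 5 with the highest CpG ratio, the 5 longest runs, the 3 richest 1-Mb windows (ties included) and the 10 genes nearest to the most regions (ties included). The members, the lists and the comparisons were chosen with earlier results of these data known. Functions were tested on simulated data. Python 3.11.15, NumPy 2.4.6, pandas 2.3.3, SciPy 1.17.1, Numba 0.67.0 and Matplotlib 3.10.9 were used.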

Additional observations from a re-analysis of the deposited data

Results flagged for a closer look

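The rule left out chromosome 15 and the segment of chromosome 10, and these held H3K4me3 peaks outside the main measurement. A total of 378 peaks there met the rest of the rule. The 293 on chromosome 15 made 2.82 per Mb and the 85 in the segment 3.40 per Mb, above the highest density of any chromosome analysed, 1.01 per Mb. Their median widths were 224 and 235 bp, their median GC contents 49.0% and 47.8%, and 3.41% and 1.18% overlapped an island. A further 74 peaks lay on scaffolds and patches, to which the rule could not be applied.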

How the results depend on the processing

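No paired analysis was possible because positions carry no values per sample, and for the same reason no replicate could be left out. Of 110 values recomputed under 18 alternatives, in 94 the interval included or excluded 0 as in the main value, or counts and medians stayed within 1.5 times or within the interval of the main value. In 3 of the 94 the sign turned while 0 lay in both intervals. These were the CTCF difference with peaks of 300 bp or more (1.77 points) and the island difference with RefSeq TSSs added (-0.114 points) and with merged peaks (-0.615 points). The repeat-rich, enhancer-distance and SP/KLF (against promoter peaks) differences kept their sign and excluded 0 under all of their alternatives, with ranges of 6.86 to 10.7, -18.5 to -2.02 and -44.0 to -6.68 points. The SP/KLF value of -44.0 points was that of the search in whole regions, at 9.47% against 53.4%, and promoter peaks are the wider class. With peaks of 300 bp or more, 506 regions remained, with a median width of 429.5 bp by construction, the AP-1 difference from peaks on enhancers was -5.04 points and excluded 0, and the multicopy difference from intragenic peaks was 1.49 points and included 0. With TSSs of protein-coding genes only, the median width was 249 bp, the CTCF difference -1.20 points and the island difference 4.95 points, both excluding 0. With strict islands the island difference reversed to -1.73 points. With motifs searched in whole regions, which are wider on enhancers, the AP-1 and CTCF differences were -5.70 and -4.53 points, and in unmasked bases only the AP-1 difference was -1.77 points, all excluding 0. The multicopy difference, which rests on 18 regions, also no longer excluded 0 with RefSeq TSSs added (0.409 points), on autosomes only (0.593), without any annotated gene (0.444), without an enhancer within 1 kb (0.611) or with peaks merged within 1 kb (0.540). Other causes were not tested. Positions without heights or depth limit all of these values, since weak and strong peaks count alike.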

Other observations

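The 5 regions farthest from any GENCODE TSS were all 200 to 221 bp wide, with GC contents of 47.2% to 51.0%, and none overlapped an island. The first pair lay on chromosome 18 between Cdh2 and Dsc3, 385 and 342 kb from a TSS and 42.6 kb from each other. The third, whose centre is printed above, was 331 kb from Mir195b and 658 kb from a TSS of Nr4a2, a nuclear receptor gene. The fourth lay 310 kb from Gm26489 and 427 kb from a TSS of Cbln4, but 22.1 kb from a predicted RefSeq start. The fifth, on chromosome 5, was 289 kb from Gm25722 and 548 kb from Auts2. In 10 of the 1859 regions (0.538%) a base lay in an experimentally supported enhancer of the RefSeq functional elements, against 3.09% of peaks on putative enhancers, a difference of -2.55 points (-3.77 to -1.57). The peaks on putative enhancers were wider, and any shared base was counted. The share was 0.365% in intragenic peaks, a difference of 0.173 points that included 0 (-0.447 to 0.675). It was 0.210% in promoter peaks and 0.0599% in windows without a peak.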
